A study of Canis lupus familiaris with 5 samples.

Results

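Peptidylarginine deiminases are enzymes that turn arginine residues of proteins into citrulline. The genes chosen for description were the 3 family members PADI2, PADI3 and PADI4, and the feature table shared by the 5 libraries held 2 of them, PADI2 (ENSCAFG00000015813) and PADI3 (ENSCAFG00000015797), among 20257 features. No row was matched to the symbol PADI4, so PADI4 was not analysed here. The libraries were droplet-based 3′ single-cell RNA-seq of bone marrow flushed from the femurs of 3 healthy dogs labelled wild type, with red cells lysed. They comprised 3 whole-marrow libraries, 1 per dog and called whole marrow 1, 2 and 3, and 2 libraries of propidium iodide-negative CD34+ cells sorted from 2 of those dogs. The labels do not say which sorted library came from which of these dogs. Ages were not given in the sources used here. The protocol set an upper limit on the neutrophil share of the marrows that were loaded, so the class sizes below are not those of unselected marrow.

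Deiminases need calcium to be active. PADI4 is the member best known in neutrophils, where it enters the nucleus, citrullinates histones and takes part in the release of neutrophil extracellular traps (NETs), the webs of chromatin and granule protein that trap microbes. PADI2 is the most widely expressed member and is known from macrophages, brain and muscle, while PADI3 is known from hair follicles and epidermis, where it modifies trichohyalin and filaggrin. In the RefSeq annotation of the dog assembly UU_Cfam_GSD_1.0 these genes are neighbours, in the order PADI6, PADI4, LOC102157138, PADI3, PADI1, PADI2. That assembly is not the one the counts were made on, so no coordinates are given. Family members resemble one another, and whether reads from PADI4 transcripts were counted under PADI3 was not tested.

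Neutrophils mature in the marrow from MPO-expressing progenitors through promyelocytes that make primary granule proteins such as ELANE, then myelocytes that still divide and make the secondary granule proteins CAMP and LTF, and finally non-dividing band and segmented cells, some of which express CXCL8, a neutrophil-attracting chemokine. Cells were gated on their own counts of unique molecular identifiers (UMIs). The gates were MPO at 0.1% or more of a cell's UMIs, ELANE at 1% or more, CAMP at 1% or more, divided into cells with 2 or more UMIs of the division genes MKI67 and TOP2A (cycling) and cells with 0 (non-cycling), LTF and MMP8 together at 5 or more UMIs, CXCL8 at 2 or more, EPX (eosinophil peroxidase) at 2 or more, VCAN (versican, used as a monocyte marker) at 2 or more, AHSP (erythroid) at 0.2% or more and VPREB1 (B-cell precursors) at 5 or more. These gates overlap. For tests, each cell was placed in 1 exclusive class, and cells that met the AHSP or VPREB1 gate together with another gate were set aside as mixed. A gene used for a gate was not read as a result.

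Of 27953 barcodes, 24708 passed the limits of 200 genes or more and 10% mitochondrial UMIs or fewer. The whole-marrow libraries kept 7295, 4585 and 4343 cells with medians of 2694, 3689 and 4344 UMIs per cell, and the sorted libraries kept 4720 and 3765 cells with medians of 11622 and 14623. Pairs of libraries shared 4 to 12 barcodes. In whole marrow the median depth also fell along the neutrophil classes, from 28860 to 32542 UMIs in the MPO class to 970 to 2086 in the CXCL8 class. Levels are therefore given as UMIs of the gene per 1000000 UMIs of the class (CPM), as UMIs of the gene per cell, and as shares of cells with a UMI at equal depth. The 3 whole marrows come from different dogs. Tests within whole marrow set each marrow's own level aside as a block. Their p-values rest on how much class differences vary between marrows, pooled over all classes in the fit. Tests of sorted against whole libraries have no block, although some dogs gave both kinds. Those p-values rest on the spread between libraries of the same kind.

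PADI3 was a high-abundance transcript of late neutrophils in these marrows, and PADI2 a scarce one. In whole marrow as a whole PADI3 stood at 888, 528 and 1025 CPM in libraries 1, 2 and 3, and PADI2 at 6.22, 11.8 and 8.47. PADI3 had 143, 44.7 and 121 UMIs for each UMI of PADI2. The LTF-MMP8 and CXCL8 classes together held 81.3%, 82.3% and 88.0% of all PADI3 UMIs, and 58.3%, 57.2% and 71.2% of all PADI2 UMIs. Of kept cells the LTF-MMP8 class made up 38.4%, 33.0% and 28.4%, and the CXCL8 class 13.9%, 15.9% and 23.1%. Over all cells PADI2 had 0.0444, 0.116 and 0.0870 UMIs per cell. It had 0.0553, 0.142 and 0.134 in the LTF-MMP8 class and 0.0336, 0.120 and 0.103 in the CXCL8 class. Both genes come from the same 3′ libraries, in which UMIs are not scaled by transcript length, and how well each gene's 3′ end was annotated was not tested.

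PADI3 began low. In the MPO class it stood at 63.1, 29.8 and 23.4 CPM, and in the ELANE class at 37.5, 30.3 and 52.8. These ranges overlapped, and whole marrow 1 was lower in the ELANE class than in the MPO class while whole marrow 3 was higher. Measured the same way, the VPREB1 class, whose PADI3 UMIs were taken as background, stood at 8.48, 5.22 and 8.95 and the AHSP class at 9.99, 4.08 and 4.75. Whether these UMIs came from free RNA was not tested. The median depth of a cell was 2860 to 5710 UMIs in the VPREB1 class and 36351 to 52326 in the AHSP class. The 7 late neutrophil markers together stood at 1022, 298 and 243 CPM in the MPO class, with the marrows in the same order as for PADI3, and CXCR2 among them at 0 in each. Their part in the PADI3 level was not tested.

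PADI3 then rose in the cycling CAMP class, the dividing cells that make secondary granule protein, to 313, 267 and 386 CPM. Every marrow was above its own ELANE class, by 8.33-, 8.81- and 7.31-fold. In the LTF-MMP8 class PADI3 reached 3199, 2445 and 2950, which was 10.2, 9.15 and 7.65 times the cycling CAMP class of the same marrow. The CXCL8 class was at 5174, 3538 and 6216, or 1.62, 1.45 and 2.11 times the LTF-MMP8 class. Per cell the last step did not show that course. The cycling CAMP class had 2.47, 2.30 and 5.14 PADI3 UMIs per cell and the LTF-MMP8 class 10.4, 9.31 and 17.6, while the CXCL8 class had 8.37, 7.40 and 18.5, lower than the LTF-MMP8 class in whole marrows 1 and 2. Ordered by the mean over the 3 marrows, PADI3 stood at 4976 ± 1350 CPM (SD, n = 3) in the CXCL8 class, 2865 ± 384 in the LTF-MMP8 class, 526 ± 89.5 in the VCAN class, 322 ± 59.8 in the cycling CAMP class, 40.2 ± 11.5 in the ELANE class, 38.8 ± 21.3 in the MPO class, 7.55 ± 2.03 in the VPREB1 class and 6.27 ± 3.24 in the AHSP class. The ELANE and MPO classes overlapped in this order, as did the VPREB1 and AHSP classes, while the other neighbours did not overlap. The small EPX and S100A12 classes are described separately.

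**Figure D1:**
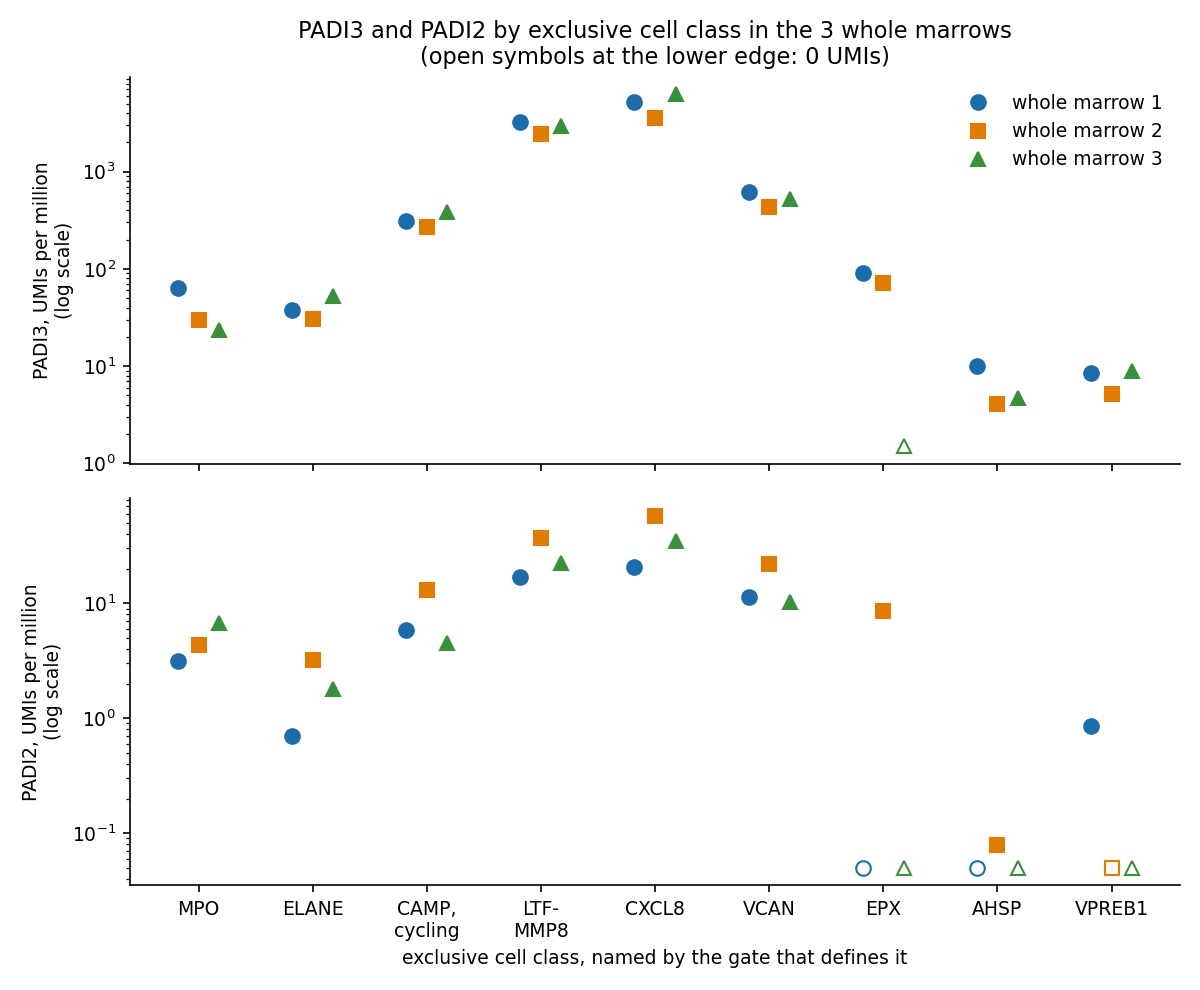
PADI3 (top) and PADI2 (bottom) in CPM on log axes, by exclusive cell class, with 1 symbol per whole marrow; open symbols stand for 0 UMIs. PADI3 climbs from 23.4 to 63.1 in the MPO class to 3538 to 6216 in the CXCL8 class, and PADI2 from 3.13 to 6.70 to between 20.8 and 57.5.

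In CPM, PADI2 had its lowest level of these classes in the ELANE class and its highest in the CXCL8 class, with a smaller range than PADI3, but per cell its CXCL8 class was below its MPO class. It stood at 3.13, 4.33 and 6.70 CPM in the MPO class and at 0.695, 3.22 and 1.79 in the ELANE class, where it rested on 3, 7 and 4 UMIs. Each marrow was lower in the ELANE class than in the MPO class. The cycling CAMP class was at 5.85, 13.0 and 4.50, the LTF-MMP8 class at 17.0, 37.3 and 22.5, and the CXCL8 class at 20.8, 57.5 and 34.5. In every marrow each of these 3 classes was above the one before it, although in whole marrow 3 the cycling CAMP class was still below the MPO class. From the MPO class to the CXCL8 class PADI2 CPM differed by 6.64-, 13.3- and 5.16-fold, against 82.0-, 119- and 265-fold for PADI3. The same classes differ widely in depth, and per cell PADI2 was lower in the CXCL8 class in every marrow, with 0.0336, 0.120 and 0.103 UMIs against 0.0732, 0.129 and 0.174 in the MPO class. It was also lower there than in the LTF-MMP8 class, which had 0.0553, 0.142 and 0.134 UMIs per cell. PADI3 per cell was higher in the CXCL8 class than in the MPO class, which had 1.48, 0.887 and 0.609.

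Background was low for PADI2. The AHSP class held 0, 1 and 0 PADI2 UMIs in the 3 marrows, and its counts of 0 allow levels of up to 0.329 and 0.347 CPM in whole marrows 1 and 3. The VPREB1 class held 1, 0 and 0 UMIs, the latter with limits of 7.83 and 2.06. These limits, each 3 counts over the total, cover counting error alone.

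The step from the ELANE class to the cycling CAMP class passed the test for both genes. In edgeR's quasi-likelihood fit over 29 sums of counts, with the marrow as a block, PADI3 rose by a log2 fold change of 3.26 ± 0.56 (SE; Benjamini-Hochberg adjusted p = 0.000156) and PADI2 by 2.32 ± 0.42 (adjusted p = 2.33e-05). Of 10399 genes tested, leaving out the gate genes, 37.7% passed in this comparison. From the cycling CAMP class to the LTF-MMP8 class, a comparison added after the class sizes were seen, PADI3 rose by 3.00 ± 0.53 (edgeR, adjusted p = 0.00025) and PADI2 by 1.63 ± 0.24 (adjusted p = 1.18e-06), where 35.7% of genes passed. PADI3 ranked 287th and 345th of 10412 genes by fold change in these comparisons, and PADI2 ranked 581st and 1175th. Because more than 1 gene in 3 passed, a pass alone sets neither member apart.

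The steps on either side did not pass. From the MPO class to the ELANE class PADI3 differed by 0.90 ± 0.59 (log2; edgeR, adjusted p = 0.289) and PADI2 by -0.32 ± 0.58 (adjusted p = 0.74), where 27.5% of genes passed. The value was 0.02 for PADI3 and -1.19 for PADI2 when libraries were scaled by total counts alone, and PADI3 passed without whole marrow 3 (0.54, edgeR adjusted p = 0.0413). From the LTF-MMP8 class to the CXCL8 class PADI3 differed by 0.48 ± 0.49 (adjusted p = 0.565) and PADI2 by 0.22 ± 0.22 (adjusted p = 0.53), where 19.2% of genes passed in edgeR's test. Within these errors a change of the size seen in CPM was not separated from none. The comparison of PADI3 passed when the fit held these classes alone (edgeR, adjusted p = 0.0198).

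**Figure D2:**
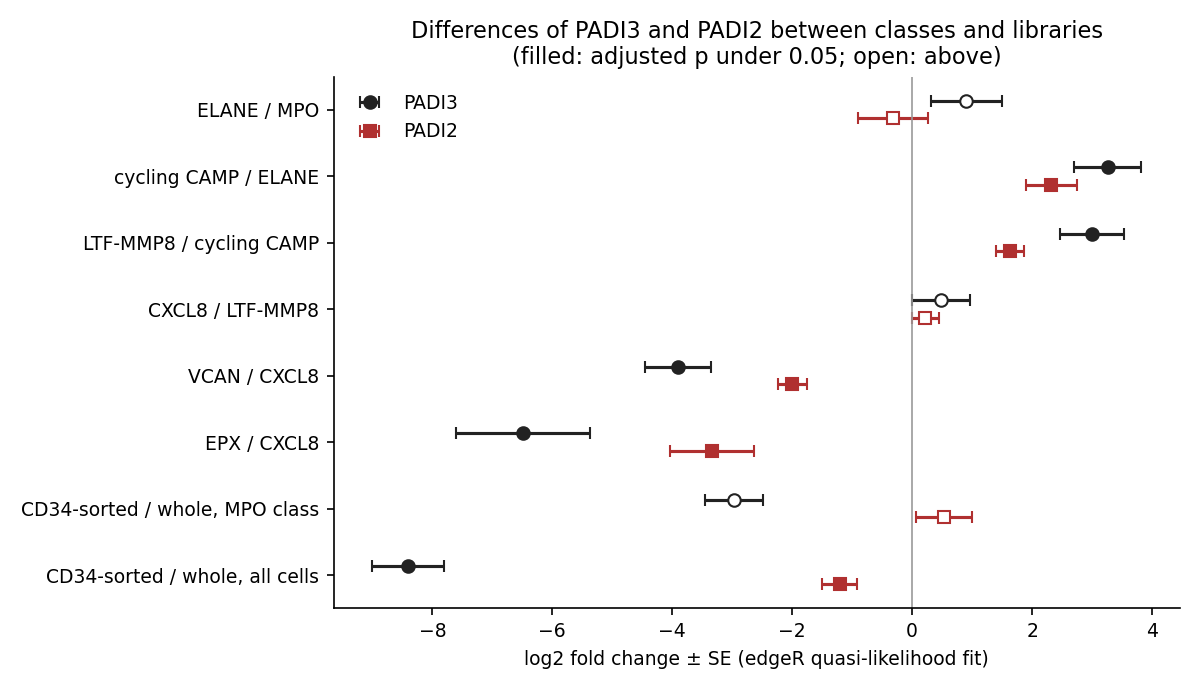
Log2 fold changes of PADI3 (circles) and PADI2 (squares) with their standard errors from edgeR's fits, 1 row per comparison, filled where the adjusted p was under 0.05. Both genes lie to the right in the comparisons of the cycling CAMP class with the ELANE class (3.26 and 2.32) and of the LTF-MMP8 class with the cycling CAMP class (3.00 and 1.63).

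The exclusive non-cycling CAMP class was too small to carry a result, since nearly all non-cycling CAMP cells also met the LTF-MMP8 gate. It held 57, 15 and 16 cells, and whole marrow 1 alone reached the 20 cells needed for a sum. Its PADI3 level was 53.5, 72.0 and 92.8 CPM and its PADI2 count was 0 in every marrow. Against the cycling CAMP class PADI3 differed by -3.21 ± 1.01 (log2; edgeR, adjusted p = 0.0891) and PADI2 by -7.86 ± 3.78 (adjusted p = 0.28), where 4.77% of genes passed. The LTF-MMP8 class was above it by 6.21 ± 1.11 for PADI3 (edgeR, adjusted p = 0.00114) and 9.49 ± 2.67 for PADI2 (adjusted p = 0.0133), where 12.9% passed. The values of PADI2 depend on the prior count of the fit, since the lower class had no UMI, and the latter call was lost with DESeq2 (adjusted p = 0.0633) and without whole marrow 2 (edgeR, adjusted p = 0.0502). When non-cycling CAMP cells were assigned before the LTF-MMP8 gate, an order chosen after seeing the data, the first comparison turned to 2.93 for PADI3 and 1.76 for PADI2 and the second to 0.03 and -0.45, so these values describe a remnant of cells with few LTF and MMP8 UMIs. In the remnant MPO and ELANE summed to 53786, 71427 and 77787 CPM. That was near the ELANE class, at 53189, 73597 and 67311, and above the cycling CAMP class, at 10840, 13923 and 15357.

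The overlapping non-cycling CAMP gate held 1578, 931 and 887 cells, with that remnant as a small part of them. Its division cut is in raw UMIs. Median depths were 6770 to 12251 UMIs in the cycling and 3012 to 5268 in the non-cycling gate. The part of depth in this split was not tested. Among all cells of the CAMP gate, cycling cells had PADI3 at 314, 274 and 392 CPM and non-cycling cells at 2325, 1939 and 2821, or 7.40, 7.07 and 7.20 times as much. PADI2 stood at 5.62, 12.4 and 4.13 in cycling and 13.4, 36.3 and 24.2 in non-cycling cells of that gate, with ratios of 2.38, 2.92 and 5.85. Cells with exactly 1 UMI of MKI67 and TOP2A lay between for PADI3, at 645, 743 and 1161, once mixed cells were set aside. Per cell, PADI3 went from 2.51, 2.38 and 5.31 UMIs with 2 or more division UMIs to 8.28, 7.61 and 16.6 UMIs with none, although the non-cycling cells were shallower. PADI2 per cell did not show that course in whole marrow 1, at 0.0457 and 0.0473 UMIs, but did in the others, at 0.112 and 0.143 and at 0.0579 and 0.143.

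Counting cells at equal depth again placed the CXCL8, non-cycling CAMP and LTF-MMP8 gates above the earlier neutrophil gates for PADI3. With each cell thinned to 1000 UMIs and shallower cells left out, 9.49% ± 3.76 (SD, n = 3 marrows) of MPO-gate cells had a PADI3 UMI, 8.63% ± 2.58 of ELANE-gate cells, 27.6% ± 5.12 of cycling CAMP cells, 78.7% ± 4.51 of non-cycling CAMP cells, 74.9% ± 3.65 of LTF-MMP8 cells and 89.8% ± 4.90 of CXCL8 cells. The order of the other gates was not that of their CPM. The VCAN gate, at 38.1% ± 3.92, was above the cycling CAMP gate, whereas its mean CPM was below it (282 against 327). The VPREB1 gate, at 7.11% ± 2.45, overlapped with the MPO and ELANE gates, whereas its mean CPM was above theirs (116 against 94.0 and 81.4). The AHSP gate, at 3.98% ± 1.94, lay below them. The VPREB1 and AHSP gates still held mixed cells, and in the exclusive classes, without mixed cells, the share was 1.45% ± 0.248 for VPREB1 and 0.959% ± 0.348 for AHSP. The early gates also held cells of the LTF-MMP8 gate, which 27.5%, 35.3% and 44.0% of MPO-gate cells met. Of ELANE-gate cells 33.7%, 43.7% and 46.6% met it. In the exclusive classes the share was 2.64% ± 0.616 for MPO and 4.72% ± 1.11 for ELANE, in the opposite order to the gates. Unthinned, 98.6%, 95.5% and 98.9% of CXCL8-gate cells had a PADI3 UMI. The thinned value of that gate covers its deeper cells alone. In whole marrow 1, 470 of the 1005 CXCL8-class cells with ELANE under 1% were deep enough to be thinned.

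PADI2 was found in few cells of any gate. At 1000 UMIs per cell the share with a PADI2 UMI was 0.264% ± 0.196 in the MPO gate, 0.213% ± 0.166 in the ELANE gate, 0.868% ± 0.467 in cycling and 2.73% ± 1.21 in non-cycling CAMP cells, 3.16% ± 1.23 in the LTF-MMP8 gate and 4.97% ± 2.27 in the CXCL8 gate. It was 1.60% ± 0.649 in the VCAN gate, 0.0192% ± 0.0170 in the AHSP gate and 0.0506% ± 0.0457 in the VPREB1 gate. Whole marrow 2 was the highest of the 3 in every neutrophil gate, with 7.50% of CXCL8-gate cells against 3.11% and 4.31%.

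**Figure D3:**
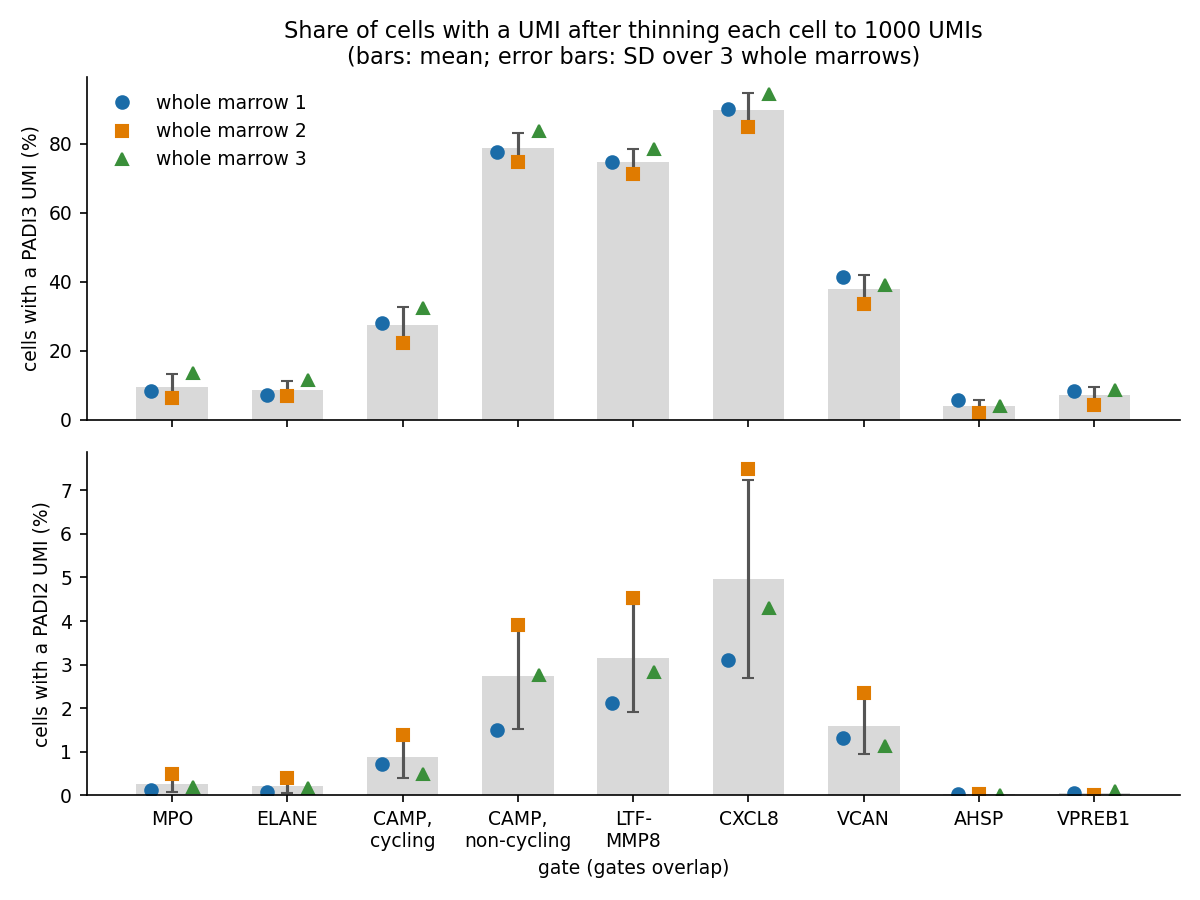
Share of cells with a PADI3 UMI (top) or a PADI2 UMI (bottom) after thinning to 1000 UMIs per cell, by overlapping gate; bars are means, error bars SDs over 3 whole marrows and symbols the marrows. PADI3 reaches 89.8% in the CXCL8 gate, while PADI2 reaches 4.97% there.

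The cells of the LTF-MMP8 gate were far from uniform in PADI3. Non-cycling cells of that gate were divided by CAMP, whose transcript declines as neutrophils leave the granule-making stages. This division was made after seeing the data and is a description. Where CAMP held 4% or more of a cell's UMIs, PADI3 stood at 2193, 1598 and 2431 CPM. It was at 3630, 3282 and 4870 with CAMP from 1% to 4%, at 5924, 4228 and 6546 from 0.1% to 1%, and at 7867, 6713 and 8635 below 0.1%. PADI3 was higher at every step in every marrow, and the last level was 3.59, 4.20 and 3.55 times the first. At that level PADI3 was detected in 1042 of 1042, 607 of 607 and 671 of 672 cells.

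Most of the later part of that climb was in the share of UMIs and not in UMIs per cell. Cells with CAMP at 4% or more had 7.46, 6.37 and 14.6 PADI3 UMIs per cell, and cells from 1% to 4% had 12.4, 11.8 and 24.4. Below that the number was level, at 13.8, 12.1 and 24.0 from 0.1% to 1% and 13.7, 12.5 and 23.1 below 0.1%. Over the same range the median depth of a cell fell from 3128 to 1491 UMIs in whole marrow 1, from 3700 to 1730 in whole marrow 2 and from 5593 to 2454 in whole marrow 3. UMI counts cannot tell less total RNA per cell with constant PADI3 apart from more PADI3 in cells from which fewer molecules were captured.

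PADI2 CPM was also higher at the lowest than at the highest CAMP share, but its UMIs per cell were not. It stood at 16.4, 37.6 and 24.5 CPM at the highest CAMP share and 32.5, 71.4 and 42.8 at the lowest. The intermediate share from 1% to 4% was at 6.85 in whole marrow 1, which rested on 8 UMIs. Per cell the counts were 0.0558, 0.150 and 0.147 at the highest CAMP share and 0.0566, 0.133 and 0.115 at the lowest.

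CXCL8 itself did not mark a further step of PADI3 among the LTF-MMP8 gate cells with the lowest CAMP share. Within non-cycling LTF-MMP8 cells with CAMP below 0.1%, cells with 0 CXCL8 UMIs had PADI3 at 7905, 6933 and 7925 CPM, and cells with 2 or more had 7715, 6311 and 8936. The ratios were 0.976, 0.910 and 1.13, above 1 in whole marrow 3 alone. In the CXCL8 class, cells without LTF or MMP8 UMIs stood at 4837, 2211 and 5063 and had 4.09, 3.14 and 6.43 PADI3 UMIs per cell at median depths of 669 to 1130 UMIs. At the other end, LTF-MMP8 gate cells that still had ELANE at 1% or more had a mean PADI3 of 145 ± 24.5 CPM (SD, n = 3), and the 7, 9 and 12 cells of the CXCL8 class with that much ELANE had 253, 200 and 454. Cells that kept ELANE were thus below the late level of PADI3 in both gates.

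**Figure D4:**
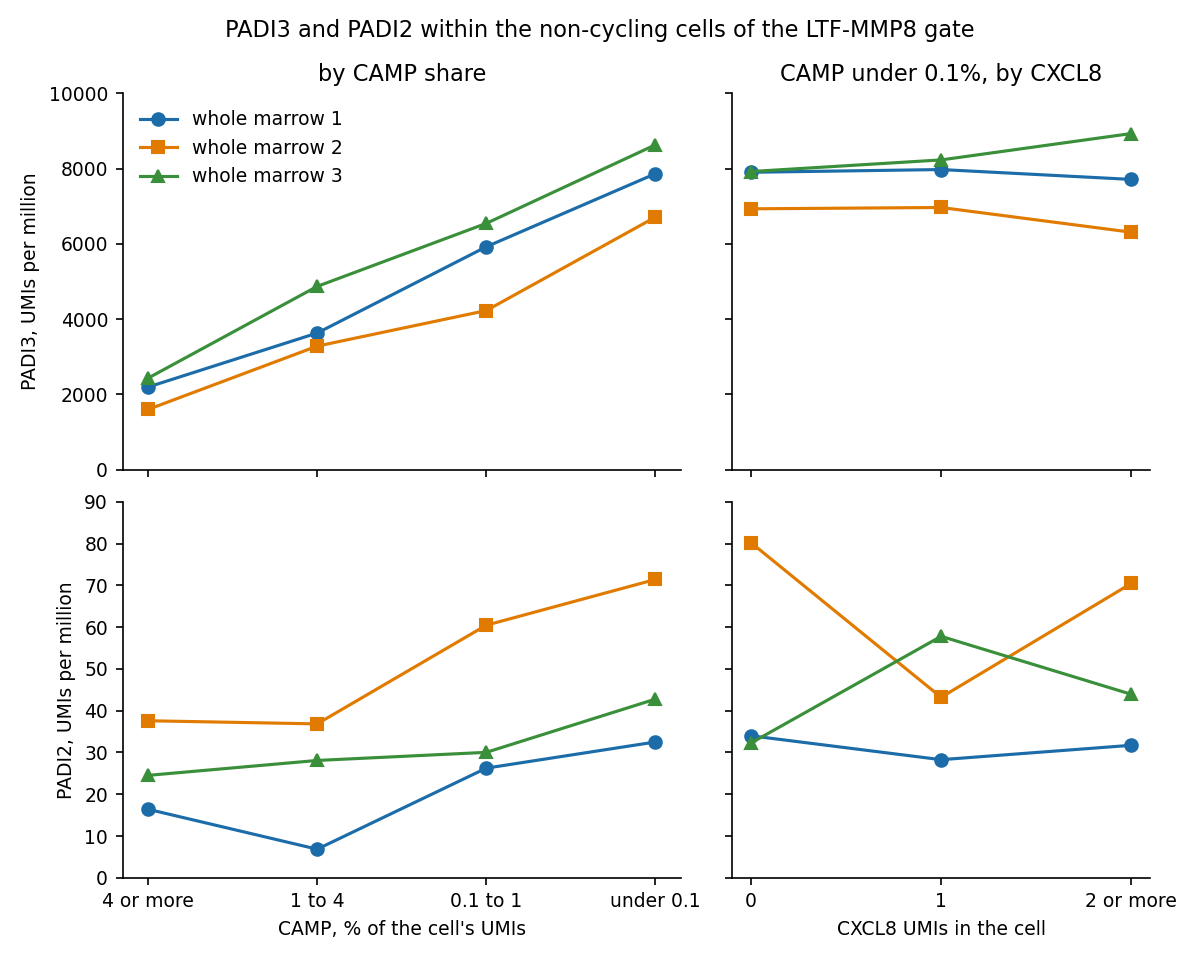
PADI3 (top) and PADI2 (bottom) in CPM within non-cycling cells of the LTF-MMP8 gate, on linear axes from 0, by CAMP share (left) and, for cells with CAMP under 0.1%, by CXCL8 UMIs (right); each line is 1 whole marrow. PADI3 climbs from 1598 to 2431 on the left to 6713 to 8635, and on the right lies between 6311 and 8936 with no common direction.

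In CPM the VCAN class carried both genes at levels below late neutrophils and above the background classes. PADI3 stood at 616, 437 and 523 CPM in this class and PADI2 at 11.3, 21.8 and 10.3. PADI3 was 0.119, 0.124 and 0.0841 times its CXCL8 class level and PADI2 0.544, 0.378 and 0.300 times. In edgeR's fit PADI3 fell by 3.90 ± 0.55 on the log2 scale against the CXCL8 class (adjusted p = 1.56e-05) and PADI2 fell by 2.00 ± 0.24 (adjusted p = 7.28e-09), where 49.9% of genes passed. Per cell the order of PADI2 was the other way round, with 0.122, 0.237 and 0.158 UMIs in the VCAN class and 0.0336, 0.120 and 0.103 in the CXCL8 class, at median depths of 8543 to 12656 and 970 to 2086 UMIs. The VCAN class was assigned before the neutrophil classes and so included cells that also met their gates. Of VCAN-gate cells 29.7%, 24.4% and 32.0% met the LTF-MMP8 gate and 21.1%, 34.2% and 22.4% the CXCL8 gate. PADI3 had means of 1112 ± 196 and 1168 ± 192 CPM in these overlaps (SD, n = 3).

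Neutrophil transcripts were present in the VCAN class. All 6 granule-stage marker genes measured there were above 0 in each marrow, summing to 2538 to 3356 CPM against 23754 to 33682 in the CXCL8 class, and all 7 late neutrophil markers summed to 6568 to 7001 against 86903 to 126879. The 5 monocyte-macrophage genes summed to 546, 907 and 688 CPM, against 51.9, 56.1 and 21.1 in the CXCL8 class. VCAN, the gate gene, made up 501, 772 and 599 of that. CSF1R, the receptor of the macrophage growth factor, stood at 24.7, 112 and 76.0, the chemokine receptor CCR2 at 15.0, 20.9 and 12.3 and the complement gene C1QA at 5.07, 1.48 and 0.241, and FCN1 had 0, 2 and 0 UMIs. In VCAN-gate cells outside every neutrophil gate PADI3 was at 302, 183 and 257, and in VCAN-gate cells without any LTF or MMP8 UMI at 314, 193 and 271. PADI2 had a mean of 13.0 ± 5.02 and 12.8 ± 3.55 CPM in these cells (SD, n = 3). These cells kept both transcripts above the VPREB1 and AHSP classes in each marrow, whose highest PADI3 level was 9.99 and highest PADI2 level 0.848.

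PADI3 was less dominant over PADI2 in the VCAN class than in late neutrophils. In the CXCL8 class there were 249, 61.5 and 180 PADI3 UMIs for each PADI2 UMI, in the LTF-MMP8 class 188, 65.6 and 131, and in the VCAN class 54.6, 20.1 and 50.5. In each marrow the VCAN class had the lowest of these 3 ratios, although it included cells that also met a neutrophil gate. Whole marrow 2 was the lowest marrow in these classes, with the lowest PADI3 and the highest PADI2 of the 3 marrows in the LTF-MMP8, CXCL8 and VCAN classes. Ratios as low were found early in the neutrophil classes, with 53.5, 20.6 and 85.8 in the cycling CAMP class, 54.0, 9.43 and 29.5 in the ELANE class and 20.2, 6.88 and 3.50 in the MPO class, so a low ratio did not set the VCAN class apart. With 1 library per dog, a difference between dogs cannot be told apart from one between libraries.

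Eosinophils were too few for a level. The EPX class held 9, 25 and 4 cells, with 10, 25 and 0 PADI3 UMIs and 0, 3 and 0 PADI2 UMIs. PADI3 stood at 91.7 and 71.0 CPM in the first and second marrow, and the count of 0 in whole marrow 3 allows up to 32.8. The fit could use whole marrow 2 alone, its spread assumed to be that of the other classes, and placed PADI3 lower than in the CXCL8 class by a log2 fold change of -6.49 ± 1.12 (edgeR, adjusted p = 0.000269) and PADI2 by -3.33 ± 0.70 (adjusted p = 0.00027), where 31.2% of genes passed.

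A further class held the cells with S100A12, a calcium-binding protein of neutrophils, at 0.1% or more of UMIs that met none of the other gates and had no CXCL8 UMI. PADI3 stood there at 2522, 1783 and 311 CPM and PADI2 at 11.0, 31.0 and 2.07. Whole marrow 3 was far below the other 2 in this class, and its cells went against the class name: S100A12 was at 4935 CPM against 39347 and 29491, and the B-cell gene PAX5 at 1691 against 100 and 393. T-cell transcripts were present in all 3 marrows. The 2 T-cell markers measured summed to 530, 357 and 300 CPM in this class, against 19.5, 30.8 and 24.5 in the CXCL8 class. The comparison below is therefore not one of neutrophils alone in any marrow. Against the CXCL8 class PADI3 fell by 2.43 ± 0.53 (log2; edgeR, adjusted p = 0.00228) and PADI2 by 2.37 ± 0.40 (adjusted p = 1.82e-05), where 29.4% of genes passed. Without whole marrow 3 the values were -1.53 for PADI3 and -1.50 for PADI2, and with these classes alone in the fit neither passed.

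CD34-sorted marrow, which holds immature cells, had little PADI3 and kept PADI2. Over all cells PADI3 stood at 2.13 and 3.80 CPM in the sorted libraries, against 528 to 1025 in whole marrow, and PADI2 at 4.01 and 5.17, against 6.22 to 11.8. The groups did not overlap for either gene. PADI3 had 130 and 232 UMIs in the sorted libraries and PADI2 had 245 and 316, so that the order of the genes was opposite to that in whole marrow. In edgeR's fit over the 5 libraries PADI3 fell by 8.40 ± 0.60 on the log2 scale (adjusted p = 0.00089) and PADI2 fell by 1.21 ± 0.29 (adjusted p = 0.0238), where 33.2% of 12494 genes passed. The call for PADI2 was lost without sorted library 1 or 2, without whole marrow 2 or 3, and with scaling by total counts (-0.94, adjusted p = 0.0623 from edgeR). The classes that held most PADI3 UMIs in whole marrow were rare after sorting. The LTF-MMP8 class made up 38.4%, 33.0% and 28.4% of kept cells in the whole marrows, against 0.381% and 0.717% in the sorted libraries. For the CXCL8 class the shares were 13.9%, 15.9% and 23.1%, against 0.127% and 0.0797%. The part of these class sizes in the fall of either gene was not tested.

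The PADI3 UMIs of sorted marrow were mostly divided among the MPO class, cells of no gate and the few cells of the LTF-MMP8 and CXCL8 classes. The MPO class held 41 and 66 of them, or 31.5% and 28.4%, and cells of no gate held 33 and 47, or 25.4% and 20.3%. The LTF-MMP8 and CXCL8 classes together held 38.5% and 37.1%. The LTF-MMP8 class comprised 18 and 27 cells, of which 16.7% (95% exact binomial interval 3.58% to 41.4%) and 18.5% (6.30% to 38.1%) had a PADI3 UMI. PADI2 had 55 and 72 UMIs in the MPO class, or 22.4% and 22.8%, and 171 and 221 in cells of no gate, or 69.8% and 69.9%, while the LTF-MMP8 and CXCL8 classes together held 0.408% and 1.27%. Cells of no gate had PADI2 at 4.96 and 6.39 CPM and PADI3 at 0.957 and 1.36.

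Within the MPO class the genes parted. PADI2 stood at 4.76 and 6.88 CPM in the sorted libraries and 3.13, 4.33 and 6.70 in whole marrow, which overlap. PADI3 stood at 3.55 and 6.31 in the sorted libraries and 63.1, 29.8 and 23.4 in whole marrow, with no overlap. The test of this class did not pass for either gene, with -2.97 ± 0.49 (log2; edgeR, adjusted p = 0.0561) for PADI3 and 0.53 ± 0.46 (adjusted p = 0.763) for PADI2, where 0.759% of 6982 genes passed. PADI3 passed with DESeq2 (-2.95, adjusted p = 1.23e-05), without whole marrow 1 (-2.40, edgeR adjusted p = 0.0248), and with a replicate block that paired sorted library 1 with marrow 2 (-2.52, edgeR adjusted p = 0.0088) or with marrow 3 (-2.37, adjusted p = 0.000362).

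The background of PADI3 also differed between these libraries. The VPREB1 class stood at 0.213 and 0.139 CPM in the sorted libraries and at 5.22 to 8.95 in whole marrow. Late neutrophil markers differed as well: in the MPO class the 7 genes summed to 28.2 and 32.0 CPM in the sorted libraries and 1022, 298 and 243 in whole marrow. S100A12 among them was at 0.519 and 0.860 in the sorted libraries and 945, 198 and 198 in whole marrow, and CXCR2 was at 0 in all 5. The 6 granule-stage markers summed to 9.43 and 12.9 against 186, 151 and 124. The part of free RNA or of these transcripts in the PADI3 difference within the MPO class was not tested. PADI2 in the sorted VPREB1 class was at 0.995 and 0.766, below the MPO class of the same libraries. In the sorted MPO class there were 0.745 and 0.917 PADI3 UMIs for each PADI2 UMI, against 20.2, 6.88 and 3.50 in the MPO class of whole marrow.

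**Figure D5:**
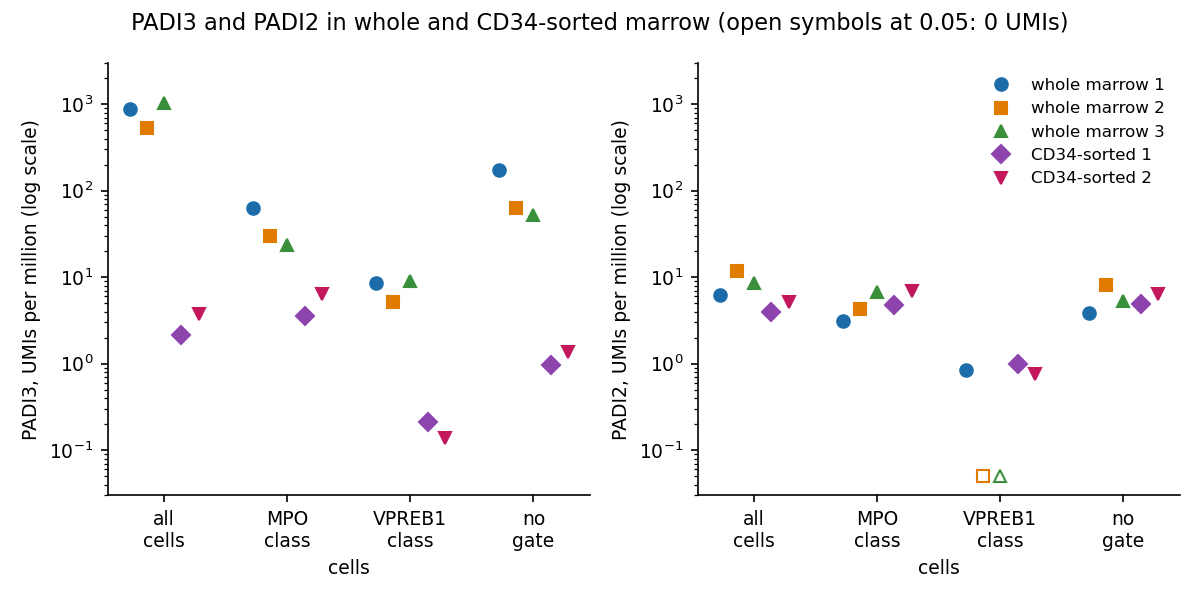
PADI3 (left) and PADI2 (right) in CPM on log axes for all cells, the MPO class, the VPREB1 class and cells of no gate, with 1 symbol per library; open symbols stand for 0 UMIs. PADI3 of the sorted libraries (2.13 and 3.80 over all cells) lies below whole marrow in every column, while PADI2 in the MPO class overlaps.

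Cells with a PADI2 UMI nearly always held PADI3 as well in late neutrophils. In the LTF-MMP8 gate 95.4%, 96.3% and 99.2% of cells with a PADI2 UMI had a PADI3 UMI, against 91.9%, 89.6% and 97.5% of the other cells. In the CXCL8 gate the shares were 100%, 97.3% and 99.0% against 98.6%, 95.3% and 98.9%. In the VCAN gate they were 94.4%, 82.6% and 91.2% against 81.4%, 75.6% and 80.6%. Cells with PADI2 were also deeper there in each marrow, with medians of 10766, 13970 and 20630 UMIs against 9621, 9526 and 13496. So they were in the CXCL8 gate, with medians of 1479, 1392 and 2362 against 1018, 1324 and 2166. In the LTF-MMP8 gate the medians were 3059, 3364 and 4552 against 2743, 3362 and 4754. The part of depth in these differences was not tested.

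The other deiminases with a row were close to absent. PADI1 had 31, 30 and 39 UMIs in the whole marrows and 0 in both sorted libraries, where a count of 0 allows up to 0.0491 CPM. The LTF-MMP8 and CXCL8 classes together held 18, 23 and 33 of these PADI1 UMIs, or 58.1%, 76.7% and 84.6%. Their shares of kept cells were 38.4%, 33.0% and 28.4% for the LTF-MMP8 class and 13.9%, 15.9% and 23.1% for the CXCL8 class. PADI6, known from oocytes and early embryos, had 8, 8 and 6 UMIs in whole marrow and 5 and 2 in sorted marrow.

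Other genes tied to NET release and to the calcium that deiminases need were described from 4 lists. In the step from the ELANE class to the cycling CAMP class, 12 of the 19 NET signalling genes tested rose and 0 fell, with a median log2 fold change of 1.26 against 0.07 for all genes. Of all genes tested 21.5% were called higher and 16.2% lower in this step. The signalling genes that rose included ITGAM, the integrin subunit CD11b (3.25), CYBB, the oxidase subunit gp91phox (2.81), and PRKCB, a protein kinase C (2.62). Of 11 nuclear proteins that deiminases are known to modify or that shape neutrophil chromatin, 8 rose and 1 fell (median 1.25), among them HMGB2 (2.18) and the histone H2AX (2.11) upward and the nucleolar protein NPM1 (-2.33) downward. The cycling CAMP class was gated on the division genes MKI67 and TOP2A, so genes that follow division can differ through the gate itself. The part of division in the nuclear list was not tested. Of 5 NET cargo genes 3 rose and 2 fell (median 2.56), with S100A8, a subunit of calprotectin, at 7.61, LCN2, an iron-carrier-binding granule protein, at 3.79 and LYZ, lysozyme, at 2.56. Of 11 genes of calcium entry and release 2 rose and 1 fell (median 0.43): the calcium pumps ATP2A3 (1.25) and ATP2B4 (0.89) rose and ATP2A2 (-0.64) fell. The calcium counts lay near the shares of all genes. All calls are edgeR's at an adjusted p under 0.05. Scaled by total counts, 11, 7, 3 and 1 genes of these lists in that order rose and 0, 1, 2 and 1 fell.

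In the step from the cycling CAMP class to the LTF-MMP8 class, 9 of 19 signalling genes rose and 0 fell (median 0.82 against 0.13 for all genes), where 19% of all genes were called higher and 16.7% lower. The largest were the complement receptor C5AR1 (5.70) and the microbial sensors TLR2 (5.55) and TLR4 (1.82). In this step 3 of 11 calcium genes rose and 0 fell (median 0.63), namely ORAI2, a calcium channel subunit (1.42), ATP2B1, a plasma membrane calcium pump (1.35), and ITPR2, a calcium release channel (0.67). Of 11 nuclear genes 2 rose and 5 fell (median -0.49), with H2AX (-3.06), the histone H2AZ1 (-1.98) and the lamin LMNB1 (-1.18) the largest. This step leaves the class gated on division genes, and the part of division in the nuclear list was again not tested. Of 5 cargo genes 0 rose and 1, BPI, a protein that binds bacterial lipopolysaccharide, fell (-1.11; median of the list -0.48). The rises in the calcium and nuclear lists and the fall in the cargo list were near the shares of all genes. Scaled by total counts, 10, 5, 3 and 0 genes of the signalling, calcium, nuclear and cargo lists rose and 0, 0, 4 and 1 fell.

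From the LTF-MMP8 class to the CXCL8 class, where neither deiminase passed, 6 of 19 signalling genes rose and 1 fell (median 0.48 against -0.08 for all genes), where 8.59% of all genes were called higher and 10.6% lower. The rises were led by CLEC7A, the beta-glucan receptor (4.69), C5AR1 (2.24) and TLR2 (2.17). Of 11 calcium genes 1 rose, ATP2B1 (1.95), and 0 fell (median 0.36). Of 11 nuclear genes 1 rose, LMNB1 (1.10), and 2 fell, among them H2AZ1 (-0.67; median 0.01), and of 5 cargo genes BPI alone fell (edgeR, adjusted p = 0.00657; median of the list -0.81). The calcium and nuclear counts were near the shares of all genes. Scaled by total counts, 10, 4, 3 and 0 genes of these lists rose and 1, 0, 1 and 1 fell.

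Against the CXCL8 class, the VCAN class had 2 of 19 signalling genes higher and 15 lower (median -1.59 against 0.15 for all genes, of which 26.4% were called higher and 23.6% lower), with C5AR1 at -2.80, CLEC7A at -2.51 and the GTPase RAC2 at -2.41. The calcium list was divided, with 3 of 11 higher and 3 lower (median 0.01), the pump ATP2A3 at -3.85, ORAI2 at -2.31 and the release channel ITPR1 at 1.67. The nuclear list had 3 of 11 higher and 4 lower (median 0.29) and the cargo list 3 of 5 higher and 1 lower (median 0.84). The calcium counts and the higher nuclear count were near the shares of all genes. Scaled by total counts, the signalling, calcium, nuclear and cargo lists had 2, 6, 6 and 3 genes higher and 12, 2, 2 and 1 lower.

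The genes with the course most like that of PADI3 over the 29 library-by-class sums of whole marrow, by Pearson's r of log2 of CPM plus 1, were CDA (r = 0.972), ANXA11 (0.968), CCPG1 (0.966), LGALS3 (0.965) and SAMSN1 (0.962). For PADI2 they were APOBR (0.93), ANXA11 (0.929), CYP27A1 (0.926), SAMSN1 (0.926) and FCER1G (0.924). The deiminases correlated with each other at 0.893. The 29 points come from 11 classes of 3 marrows and share their libraries and depths, so these values only describe likeness. CDA, the cytidine deaminase, stood at 45.9, 21.7 and 8.37 CPM in the MPO class, 521, 379 and 316 in the LTF-MMP8 class and 1801, 1188 and 1166 in the CXCL8 class. SAMSN1, which was near both deiminases, went from 10.4, 14.6 and 16.7 to 122, 146 and 94.9 and to 236, 271 and 239 in the same classes.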

How the data were processed

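The data are UMI count matrices of 5 droplet libraries, deposited by the authors as raw counts per feature and barcode. They were made with Cell Ranger 7.0.1, per the file headers (7.1.0 per the submitters' processing notes), on CanFam 3.1 per those notes. Which gene annotation release was used is not stated in the labels or headers. The 3 members and all lists were chosen with earlier results of these data known.

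Barcodes under 200 genes or above 10% mitochondrial UMIs were dropped. No doublet caller was run, and cells with an AHSP or VPREB1 gate plus another gate (188, 111, 102, 13 and 10 cells) were left out of the classes. Classes were assigned in the order EPX, VCAN, CXCL8, cycling CAMP, LTF-MMP8, non-cycling CAMP, ELANE, MPO, S100A12. Counts were summed over the cells of a class in a library if it held 20 cells or more, and the sums were tested with edgeR 4.0.16 (TMM scaling, low-count filter, robust quasi-likelihood fit, Benjamini-Hochberg adjustment over all genes), with the marrow as a block within whole marrow (16 residual degrees of freedom) and without a block between sorted and whole libraries. The block is the dog, since all classes of a marrow come from 1 library. Standard errors follow from the fit's F statistic. DESeq2 1.42.0 was an alternative. The script was tested on simulated data. Shares at equal depth are exact expectations under thinning without replacement. Intervals are exact binomial ones at 95%, and intervals and limits cover counting error alone.

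Named genes were the members, per member the 5 genes with the highest Pearson's r, and per list and comparison up to 3 genes with the largest fold change among those called. The lists held 9, 22, 13 and 13 genes (NET cargo, NET signalling, nuclear targets, calcium entry and release), of which 5, 19, 11 and 11 were tested. For 1 nuclear gene the values are not reported here, although it is included in the counts and medians of its list. Markers of other cell types were read per class. Of the 20257 features, 4432 carry an identifier but no symbol and were not matched to a gene.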

Additional observations from a re-analysis of the deposited data

How the results depend on the processing

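The 2 deiminases gave 22 fold changes and 4 shares of cells. Over the alternatives, 241 values kept their direction and side of the threshold, or stayed within 1 SD, 14 newly passed, 11 no longer passed, 6 changed sign and 5 moved. The causes were not tested unless stated. All values are log2 fold changes from edgeR unless a share is named. The rises of PADI3 and PADI2 from the ELANE to the cycling CAMP class changed sign, to -0.35 and -5.56, where LTF-MMP8 cells were assigned first, which takes nearly all cells from the cycling CAMP class. In that order PADI3 of the non-cycling against the cycling CAMP class was 0.42, and PADI2 of the LTF-MMP8 against the cycling CAMP class was 9.25 and did not pass. With non-cycling CAMP cells assigned before LTF-MMP8, the former comparison was 2.93 for PADI3 and 1.76 for PADI2, and that of the LTF-MMP8 with the non-cycling CAMP class was 0.03 and -0.45. PADI3 of the non-cycling against the cycling CAMP class passed with DESeq2 (-2.75), no low-count filter (-3.24), at least 10 cells per sum (-2.61) and no mitochondrial limit (-2.74). It ranged from -3.25 to -2.99 without whole marrow 2 or 3, and passed in 1 of these 2 fits. In both, whole marrow 1 alone held the non-cycling class, so leaving out that marrow gave no value. PADI2 of the LTF-MMP8 against the non-cycling CAMP class did not pass with DESeq2 (5.15) or without whole marrow 2 (9.52), and ranged from 9.41 to 9.52 without whole marrow 2 or 3. PADI3 of the ELANE against the MPO class passed with no low-count filter (0.91) and in a fit of these classes alone (0.70), and ranged from 0.54 to 1.34 without 1 marrow. In fits of the classes compared alone, PADI3 of the CXCL8 against the LTF-MMP8 class passed (0.48) and the S100A12 against the CXCL8 class did not (-2.54 for PADI3, -2.13 for PADI2). PADI2 of the ELANE against the MPO class gave no value there, since it was filtered out.

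Between sorted and whole marrow, PADI3 in the MPO class passed with DESeq2 (-2.95), with no low-count filter (-2.96) and with a replicate block of sorted library 1 beside marrow 2 (-2.52) or marrow 3 (-2.37), and ranged from -3.44 to -2.40 without 1 library. PADI2 over all cells was -0.94 with total counts and ranged from -1.42 to -1.03 without 1 library. The paired fits changed no other call, nor did leaving out the block within whole marrow. Thinned to 500 UMIs, the share with PADI2 was 2.47% in the CXCL8 gate and 1.63% in the LTF-MMP8 gate, and with PADI3 65.2% in the latter; in exclusive classes PADI3 was at 94.8% and 82.2%. Scaling by total counts in place of TMM moved the median fold change of all genes by -0.86 in the ELANE against the MPO class, 0.32 in the CXCL8 against the LTF-MMP8 class, 0.63 in the VCAN and 0.80 in the S100A12 against the CXCL8 class. The share of called genes that were higher went from 56% to 4.96%, 44.8% to 83.7%, 52.8% to 77.5% and 45.5% to 87.7% in these, from 57.2% to 43.2% in the cycling CAMP against the ELANE class, from 53.3% to 65.7% in the LTF-MMP8 against the cycling CAMP class, and from 47.9% to 67.8% in sorted against whole marrow. It went from 42.4% to 63.5% in the EPX against the CXCL8 class and from 7.77% to 34.4% in the non-cycling against the cycling CAMP class. The number called in the ELANE against the MPO class went from 2864 to 5200. No sign of a member changed with this scaling. PADI2 rests on 14 UMIs in the ELANE class and 18 in the MPO class of all whole marrows, and that comparison was -1.19 when scaled by total counts.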
